A study of Homo sapiens with 6 samples.

Results

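The transforming growth factor beta (TGF-beta) genes measured here were 3 ligands (TGFB1, TGFB2 and TGFB3), 3 receptors (TGFBR1, TGFBR2 and TGFBR3), the signal transducer SMAD3 and the feedback genes SMAD7, SKIL and PMEPA1. They were chosen by name: every probe set whose single gene symbol was one of these 10 was taken, which gave 20 of the 19064 probe sets with 1 gene symbol. A probe set is a group of short probes that are read together as 1 value. RNA came from U87 cells, a human glioblastoma line, grown for 16 h in DMEM with 10% serum and glutamine. In the 3 samples called IRE1dn the cells expressed a dominant negative transgene of IRE1alpha, a sensor of endoplasmic reticulum stress encoded by ERN1, and in the 3 control samples they carried the empty plasmid. The labels name a single clone for the IRE1dn cells (U87 IRE1.NCK DN) and speak of clones for the controls, so a property of that clone and the effect of the transgene cannot be told apart. The study set the groups against each other in search of genes tied to invasion and to vessel growth.

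TGF-beta ligands are secreted in a latent complex and have to be released before they can bind. The released dimer joins TGFBR2 and TGFBR1, a pair of serine/threonine kinase receptors, and TGFBR1 phosphorylates SMAD2 and SMAD3, which enter the nucleus with SMAD4. The same signal switches on its own brakes, among them SMAD7, SKIL and PMEPA1. In glioblastoma the pathway is known for promoting invasion and matrix production.

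TGFB2, TGFBR2 and PMEPA1 were higher in IRE1dn cells, and SMAD3 was lower in 2 probe sets, neither of them its brightest. By the brightest probe set of each gene, 3 of 10 rose and none fell. Of the 20 probe sets, 5 rose, 2 fell and 13 did not pass the test (limma, Benjamini-Hochberg adjusted p under 0.05 over all 19064 probe sets). The 5 that rose were 2 of 4 for TGFB2, both for TGFBR2 and the only one for PMEPA1, and the 2 that fell were 2 of 4 for SMAD3. Over all probe sets 8.73% rose and 7.64% fell, so such changes were common in this comparison. Of all calls 53.3% were higher, against 43.0% when the arrays were set to equal medians. The arrays of the groups did not overlap for 10 of the 20 probe sets, against 34.9% of all probe sets. The median log2 change was 0.24 over the 20 and 0.03 over all. By role, 2 of 7 ligand probe sets rose and none fell (median 0.87), 2 of 4 receptor probe sets rose and none fell (0.61), and of 9 for SMAD3 and the feedback genes 1 rose and 2 fell (-0.19). Throughout, a log2 change is IRE1dn minus control on the scale of log2(signal + 1.75), which makes changes of dim transcripts smaller than the ratio of their signals. The labels do not say whether replicates were separate cultures, so the p-values rest on the scatter of these samples alone, which may be technical only. With bulk RNA, fewer cells with a transcript and less of it per cell cannot be told apart.

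The 6 arrays were scaled alike, with median signals of 18.4 to 21.03 units. A probe set is called dim here where its signal lay under 13.0 units, and 4 of the 20 probe sets were dim on average in both groups. Of the 20, 13 had a mean log2 signal above that level. IRE1dn array 3 stood apart in technical controls: its 3′ to 5′ signal ratio for ACTB was 1.64, against 1.09 to 1.21 on the others, and its hybridisation spike-ins measured 1.91 times the control mean. The 3′ to 5′ ratio of GAPDH was 0.869 to 0.940 on all 6 arrays. For ERN1 itself the estimate was -0.13 on the log2 scale (SE 0.33; limma adjusted p = 0.84), and its probe set need not report the transgene, so the labels are not checked by it. Defining glioma and mesenchymal markers were unevenly measured: VIM and CD44 were bright in all arrays, while GFAP, S100B and SOX2 were dim on every array. NES read 9.52, 9.66 and 44.9 units in controls and 40.8, 27.8 and 34.7 in IRE1dn cells, and did not pass (limma adjusted p = 0.26). The summed signal of leukocyte markers was 4.42 to 12.9 units in controls and 5.81 to 16.8 in IRE1dn cells, that of endothelial markers 11.5 to 20.6 and 7.15 to 10.4, and that of epithelial markers 13.6 to 18.8 and 9.58 to 14.1. The measured markers of these 3 classes, 3 each, were dim on average in both groups, and EPCAM passed the test as lower. Smooth muscle markers summed to 171 to 370.04 units in controls and 2748 to 3351 in IRE1dn cells, mostly through ACTA2 and TAGLN (2 of 5 rose). CNN1 averaged 19.1 units in controls and 50.9 in IRE1dn cells, without overlap, but did not pass (log2 change 1.55, SE 0.47; limma adjusted p = 0.052). DES and MYH11 were dim in both. The part of these markers in the results below was not tested.

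Sequence before the transcription start is shown for the most changed ligand and feedback gene, which rose, and for SMAD3, which fell in some of its probe sets. All 10 genes had windows in the RefSeq promoter table (GRCh38.p14), 28 windows in all, and the 250 bases before each start were searched on both strands. The SMAD box was searched as CAGACA. The half-site of cyclic AMP response elements was searched as TGACGT, and the longer unfolded protein response element, which contains it, as TGACGTGG. The E-box was searched as CACGTG and the AP-1 site as TGANTCA. The GC box was searched as GGGCGG. The window shown is the first of those with the most matches other than GC boxes, capitals mark those matches on either strand, and position -1 is the last base before the start. TGFB2 has 1 window (chr1:218345086-218345335, plus strand), the one for PMEPA1 is 1 of 4 (chr20:57710578-57710827, minus strand) and the one for SMAD3 is 1 of 5 (chr15:67065352-67065601, plus strand).
TGFB2: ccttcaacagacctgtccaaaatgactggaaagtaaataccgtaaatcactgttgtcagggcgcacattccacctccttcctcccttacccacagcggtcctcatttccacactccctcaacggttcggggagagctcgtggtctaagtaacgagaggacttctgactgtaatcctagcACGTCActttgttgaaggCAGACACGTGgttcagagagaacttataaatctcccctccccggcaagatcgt
PMEPA1: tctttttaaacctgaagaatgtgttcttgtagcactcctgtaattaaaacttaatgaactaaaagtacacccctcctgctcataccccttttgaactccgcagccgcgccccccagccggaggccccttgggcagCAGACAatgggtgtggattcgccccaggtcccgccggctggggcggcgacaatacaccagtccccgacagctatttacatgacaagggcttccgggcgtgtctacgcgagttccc
SMAD3: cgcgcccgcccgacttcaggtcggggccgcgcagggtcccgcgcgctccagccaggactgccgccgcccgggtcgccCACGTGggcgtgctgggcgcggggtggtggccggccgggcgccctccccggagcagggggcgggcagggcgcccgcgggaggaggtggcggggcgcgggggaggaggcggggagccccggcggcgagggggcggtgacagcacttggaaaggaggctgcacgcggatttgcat
The TGFB2 stretch held a SMAD box from position -53, an E-box from -49, which shares its first bases with the end of that box, and the half-site on the opposite strand from -71. The PMEPA1 stretch held a SMAD box from -115 and a GC box. The SMAD3 stretch held an E-box from -173 and 4 GC boxes, and was 80.8% G and C, whereas the TGFB2 stretch was 50.4% G and C with no GC box. The SMAD box occurred in 13.6% of all 35116 windows of this length, the half-site in 7.10%, the E-box in 6.34%, the AP-1 site in 6.57% and the GC box in 42.6%. SKIL, whose change did not pass the test, has 1 window, which held the unfolded protein response element from -79. That element occurred in 0.612% of windows. Neither of the windows of TGFBR2 held any of these letters other than GC boxes. SMAD3 has other windows with as many matches other than GC boxes: window 4 holds a SMAD box from -134 and window 3 an AP-1 site from -56, so the letters differ between its starts. Which start the cells used was not measured.

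Among the ligands, TGFB2 rose and the others did not pass the test. TGFB2 encodes the ligand that needs the coreceptor TGFBR3 for strong binding to TGFBR2. Its brightest probe set, 209909_s_at, read 22.0, 18.2 and 18.6 units in the 3 controls and 100.2, 77.02 and 45.2 in the 3 IRE1dn arrays. All IRE1dn arrays lay above all controls, and IRE1dn array 3 was the lowest of its group. The mean went from 19.6 ± 2.09 to 74.1 ± 27.6 units (SD, n = 3 each), a ratio of 3.78 and on the log2 scale a change of 1.76 (SE 0.31; limma adjusted p = 0.0060). Probe set 220407_s_at read 11.3, 13.5 and 10.1 units in controls and 75.6, 75.5 and 48.3 in IRE1dn cells. Here too the groups were apart and IRE1dn array 3 was lowest. Its log2 change was 2.33 (SE 0.29; limma adjusted p = 0.0011), and its control mean of 11.6 units was under the dim level. Without IRE1dn array 3 these changes were 2.07 and 2.54, and both still passed.

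The other pair of TGFB2 probe sets did not pass. 209908_s_at read 6.41, 2.88 and 6.31 units in controls and 21.7, 23.9 and 5.82 in IRE1dn cells, so that IRE1dn array 3 alone lay among the controls. Its log2 change was 1.30 (SE 0.52; limma adjusted p = 0.13), and without that array 1.86 (adjusted p = 0.043). 220406_at read 3.50, 8.71 and 1.62 units in controls and 2.92, 3.49 and 2.36 in IRE1dn cells. It was dim on every array, and its log2 change was -0.29 (SE 0.44; limma adjusted p = 0.72).

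TGFB1 encodes the most widely expressed ligand. Its probe set 203085_s_at read 136, 123 and 159 units in controls and 111, 107 and 138 in IRE1dn cells. The groups overlapped, and the log2 change was -0.23 (SE 0.18; 95% confidence interval -0.63 to 0.17; limma adjusted p = 0.44). The interval holds both a modest fall and a small rise. The other TGFB1 probe set, 203084_at, read 2.89, 5.09 and 3.98 units in controls and 7.51, 1.14 and 0.699 in IRE1dn cells, dim on every array (log2 change -0.49, SE 0.51; limma adjusted p = 0.58).

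TGFB3, the third ligand, had a single probe set that read 65.9, 24.3 and 15.7 units in controls and 44.5, 53.1 and 72.3 in IRE1dn cells. Control array 1 lay among the IRE1dn arrays and the other controls lay below them. The log2 change was 0.87 (SE 0.45; interval -0.15 to 1.89; limma adjusted p = 0.24). It was 1.43 without control array 1 (adjusted p = 0.024) and 0.45 without control array 3, so the size rests on single controls.

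**Figure D1:**
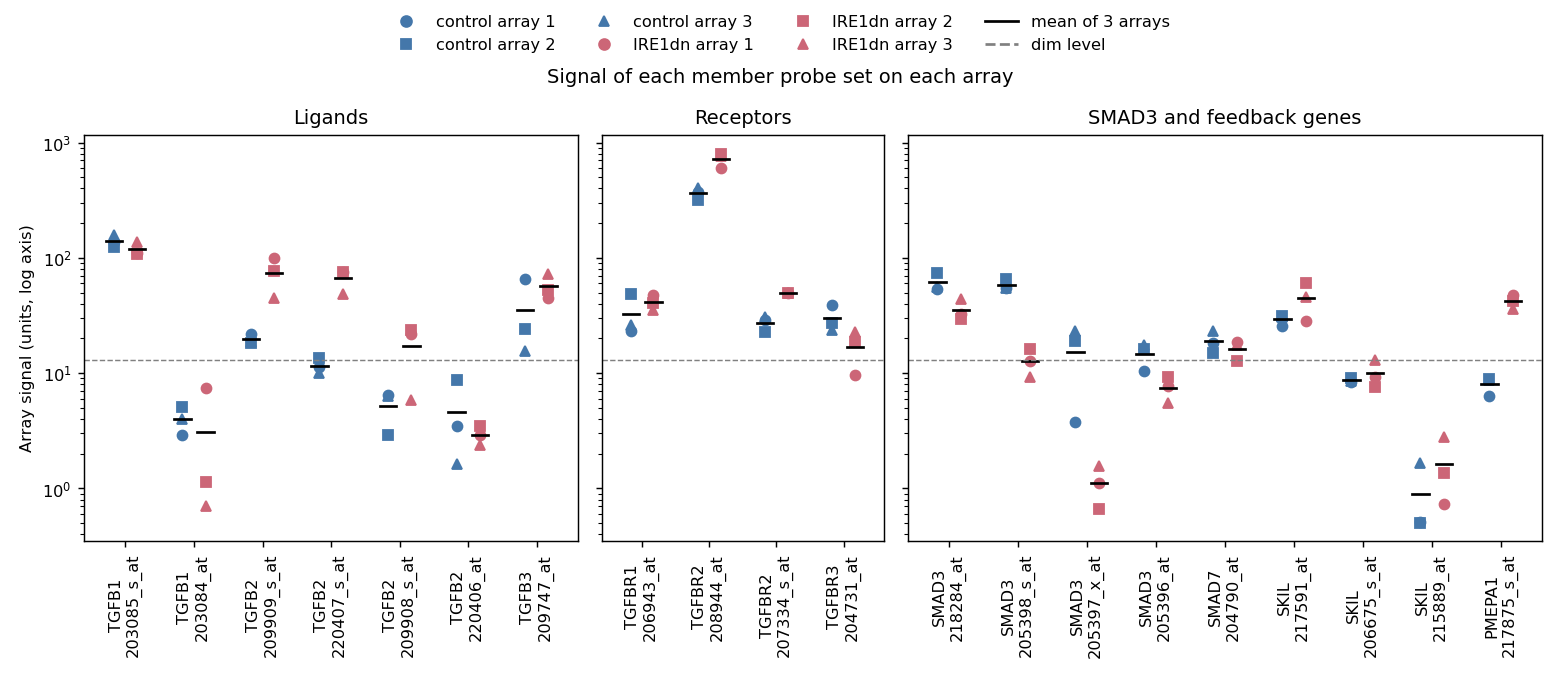
Signal of the 20 probe sets (vertical axis, units, logarithmic) on each of the 6 arrays, with controls in blue and IRE1dn in red, symbols for array number, bars for the mean of 3 arrays and a dashed line at the dim level of 13.0 units. PMEPA1, TGFBR2 and 2 TGFB2 probe sets have all IRE1dn arrays above all controls, and all 4 SMAD3 probe sets have them below.

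Among the receptors, TGFBR2 rose in both of its probe sets. TGFBR2 is the kinase that binds the ligand and activates TGFBR1. Probe set 208944_at read 374, 319 and 402 units in controls and 607, 802 and 758 in IRE1dn cells, with no overlap. Its mean went from 365 ± 41.9 to 722 ± 102 units (SD, n = 3 each), a ratio of 1.98 and on the log2 scale a change of 0.98 (SE 0.17; limma adjusted p = 0.0051). Probe set 207334_s_at read 28.9, 22.7 and 30.4 units in controls and 49.9, 49.9 and 49.7 in IRE1dn cells. Its log2 change was 0.84 (SE 0.23; limma adjusted p = 0.039), and this call ended without control array 2 (adjusted p = 0.088) or any IRE1dn array (0.11 to 0.14). It also ended after quantile normalization (0.058) or with equal array medians (0.062).

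TGFBR1, the kinase that phosphorylates SMAD2 and SMAD3, read 23.2, 48.8 and 26.1 units in controls and 47.8, 40.5 and 35.6 in IRE1dn cells. Control array 2 was the highest of all 6, and the groups overlapped. The log2 change was 0.39 (SE 0.31; interval -0.32 to 1.09; limma adjusted p = 0.47). It ranged from 0.19 without control array 1 to 0.70 without control array 2, and did not pass whichever array was left out. TGFBR3, also called betaglycan, is a coreceptor that presents ligands to TGFBR2. It read 38.9, 27.3 and 23.7 units in controls and 9.63, 18.6 and 22.6 in IRE1dn cells. All IRE1dn arrays lay below all controls, though IRE1dn array 3 came close to control array 3. The log2 change was -0.80 (SE 0.37; interval -1.63 to 0.02), which did not pass (limma adjusted p = 0.18), and it was -0.48 without IRE1dn array 1.

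SMAD3, which carries the receptor signal to DNA, was lower in IRE1dn cells in all 4 of its probe sets by value, and 2 of them passed. Probe set 205398_s_at read 54.6, 65.05 and 54.7 units in controls and 12.6, 16.2 and 9.29 in IRE1dn cells. The groups were far apart. The mean went from 58.1 ± 6.0 to 12.7 ± 3.45 units (SD, n = 3 each), a control to IRE1dn ratio of 4.58 and on the log2 scale a change of -2.07 (SE 0.28; limma adjusted p = 0.0019). Probe set 205397_x_at, of a type that can bind other transcripts, read 3.77, 18.9 and 23.2 units in controls and 1.11, 0.660 and 1.57 in IRE1dn cells. Control array 1 was itself dim. Its log2 change was -2.32 (SE 0.56; limma adjusted p = 0.022), and the call was lost when control array 2 or 3 or any IRE1dn array was left out (adjusted p of 0.050 to 0.089). It was also lost with a pseudocount of 16 (-0.81; adjusted p = 0.052).

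The brightest SMAD3 probe set, 218284_at, read 54.03, 74.2 and 56.1 units in controls and 32.6, 29.5 and 44.3 in IRE1dn cells. There was no overlap, and the log2 change of -0.77 (SE 0.25; interval -1.33 to -0.21) did not pass (limma adjusted p = 0.064). It passed after quantile normalization (adjusted p = 0.049), with equal array medians (0.042), with array weights (0.029) and among probe sets above the dim level only (0.034). The fourth, 205396_at, read 10.5, 16.2 and 17.6 units in controls and 7.78, 9.18 and 5.48 in IRE1dn cells, and its log2 change was -0.83 (SE 0.37; limma adjusted p = 0.16). The 4 probe sets shared a direction, and whether they differed in size was not tested.

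**Figure D2:**
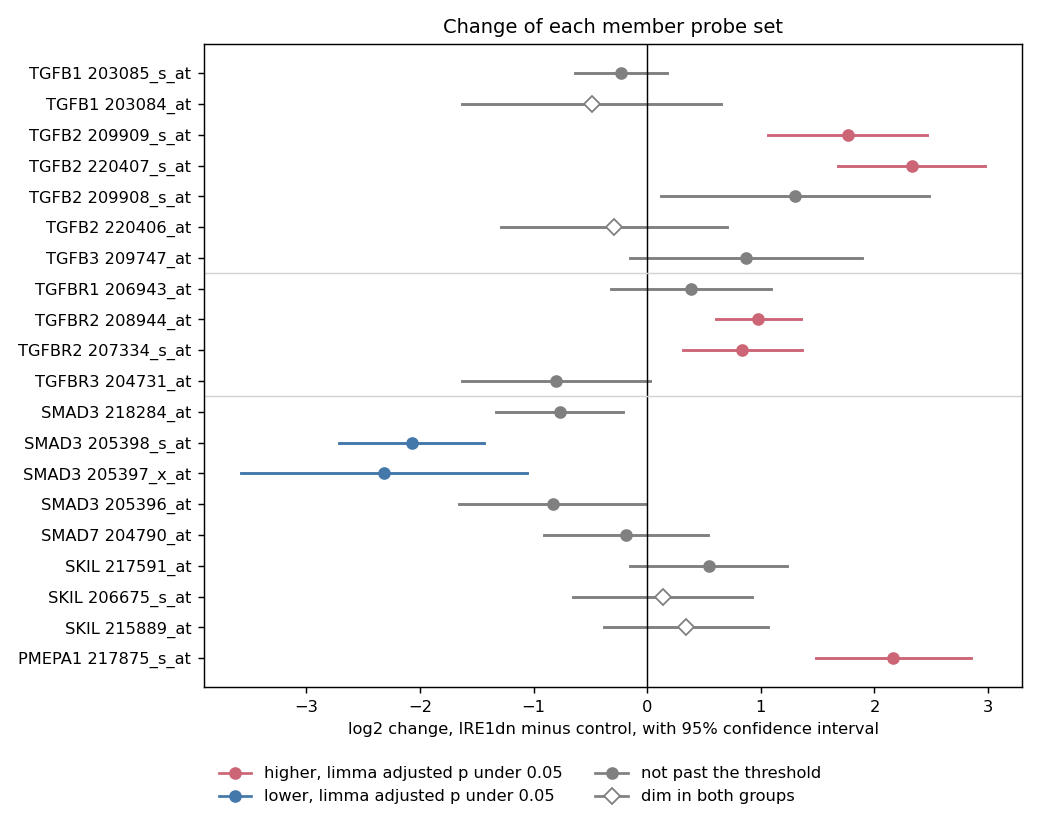
Log2 change of each of the 20 probe sets (horizontal axis, IRE1dn minus control) with its 95% confidence interval, red where higher and blue where lower with a limma adjusted p under 0.05, grey otherwise, and open diamonds where dim in both groups. The changes run from -2.32 for a SMAD3 probe set to 2.33 for a TGFB2 probe set. The intervals are not adjusted for the number of tests, so those of the 7 called probe sets cannot reach 0. Some uncalled probe sets do not reach it either, such as SMAD3 218284_at (-1.33 to -0.21).

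Of the feedback genes, PMEPA1 alone passed the test. PMEPA1, a membrane protein that keeps SMAD2 and SMAD3 from the receptor, rose: it read 6.30, 8.87 and 8.80 units in controls and 47.6, 42.3 and 35.9 in IRE1dn cells. Every control was dim and every IRE1dn array was above the dim level. The mean went from 7.99 ± 1.46 to 41.9 ± 5.85 units (SD, n = 3 each), a ratio of 5.25 and on the log2 scale a change of 2.17 (SE 0.30; limma adjusted p = 0.0020). With a pseudocount of 16 in place of 1.75 the change was 1.27 and still passed, so its size depends on that choice.

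SMAD7, the inhibitory SMAD that blocks the receptor, read 18.4, 14.99 and 23.3 units in controls and 18.8, 12.9 and 17.4 in IRE1dn cells. The arrays were mixed, and the estimate was -0.19 on the log2 scale (SE 0.32; interval -0.91 to 0.54; limma adjusted p = 0.76). SKIL, a corepressor of SMAD complexes also known as SnoN, read 25.5, 31.5 and 30.8 units in controls and 28.5, 61.03 and 45.8 in IRE1dn cells on its brightest probe set, 217591_at. IRE1dn array 1 lay among the controls and IRE1dn arrays 2 and 3 above them. The log2 change was 0.54 (SE 0.31; interval -0.15 to 1.23; limma adjusted p = 0.28). It was 0.30 without IRE1dn array 2 and 0.82 without IRE1dn array 1, and passed in neither. SKIL 206675_s_at read 8.40, 9.05 and 8.61 units in controls and 9.20, 7.56 and 13.1 in IRE1dn cells (log2 change 0.14, SE 0.35; limma adjusted p = 0.84). SKIL 215889_at read 0.514, 0.505 and 1.66 units in controls and 0.734, 1.36 and 2.81 in IRE1dn cells (log2 change 0.34, SE 0.32; limma adjusted p = 0.54). Both averaged under the dim level in each group, and neither separated the groups.

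Members of the same role were also compared with each other, by the difference of their log2 signals on each array, using the brightest probe set of each. Over 12 pairs, exact two-sided permutation tests could not go below p = 0.1, and after adjustment over the 12 the lowest was 0.20, so none passed. The log2 change of TGFB1 minus that of TGFB2 was -1.99 (SE 0.45), with no overlap between the groups of arrays (exact permutation p = 0.1). That of TGFB2 minus TGFB3 was 0.89 (SE 0.73; exact permutation p = 0.3), with overlap. For the receptors, TGFBR2 minus TGFBR3 was 1.78 (SE 0.32), without overlap (exact permutation p = 0.1), and TGFBR1 minus TGFBR2 was -0.59 (SE 0.47; exact permutation p = 0.3). For the feedback genes, SMAD7 minus PMEPA1 was -2.35 (SE 0.28) and SKIL minus PMEPA1 was -1.63 (SE 0.38), both without overlap (exact permutation p = 0.1 each), while SMAD7 minus SKIL was -0.73 (SE 0.49; exact permutation p = 0.2). SMAD3 minus PMEPA1 was the largest of the 12 at -2.94 (SE 0.29), and SMAD3 minus SKIL was -1.31 (SE 0.38), both without overlap (exact permutation p = 0.1 each). The remaining 3 pairs, TGFB1 with TGFB3, TGFBR1 with TGFBR3 and SMAD3 with SMAD7, overlapped, at -1.10 (SE 0.64), 1.19 (SE 0.62) and -0.59 (SE 0.33), each with an exact permutation p of 0.2. The size of the differences varied with the arrays used, in pairs with and without overlap. Without overlap, TGFB1 minus TGFB2 ran from -2.42 to -1.70 with 1 array left out, and SKIL minus PMEPA1 from -1.86 to -1.25. With 1 array left out, TGFB2 minus TGFB3 ran from 0.42 (without control array 1) to 1.39 (without IRE1dn array 3) and TGFB1 minus TGFB3 from -1.67 (without control array 1) to -0.58 (without control array 3). TGFBR1 minus TGFBR2 ran from -0.82 (without IRE1dn array 1) to -0.19 (without control array 2), TGFBR1 minus TGFBR3 from 0.76 to 1.55, SMAD3 minus SMAD7 from -0.79 to -0.30 and SMAD7 minus SKIL from -1.11 to -0.34. Each kept its sign.

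The genes whose log2 signals over the 6 arrays were most like those of TGFB2 209909_s_at were CDC7, GNG12 and RBBP9 (Pearson r of 0.994, 0.991 and 0.991). For TGFBR2 208944_at they were ENDOG, HMGXB4 and SRSF4 (0.997, 0.996 and 0.995), and for PMEPA1 PRR3, KNTC1 and RHOB (0.999, 0.999 and 0.998). These were picked from 7177 genes, of which 306, 639 and 844 had an r above 0.9 with the member in question. The points are 6 arrays in 2 groups, and a difference between the groups in the same direction raises r.

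Other genes of the pathway were counted in 4 lists, each gene by its brightest probe set. The lists were drawn up with earlier results of these data known, so their counts describe these genes and are not independent support for a changed pathway. Over all 11963 genes counted this way 9.35% rose and 8.87% fell, and the median was 0.02 on the log2 scale. Of 19 measured genes of latency and activation, which hold ligands in the matrix or release them, 9 rose and 3 fell (median log2 change 0.73). The rises were led by THBS1, a matrix protein that can activate latent TGF-beta (4.90, SE 0.47), DCN, a proteoglycan that binds it (4.28, SE 0.21), and PLAT, a plasminogen activator (2.55, SE 0.24). THBS1 went from 8.81 ± 8.56 to 255 ± 27.4 units and DCN from 13.0 ± 2.00 to 286 ± 33.9 (SD, n = 3 each). The control mean of THBS1 was under the dim level, and its log2 change ran from 3.50 to 5.52 over all alternatives. The falls were LRRC32, a membrane anchor of latent ligand (-2.19, SE 0.40), the plasminogen activator PLAU (-1.24, SE 0.18) and LTBP1, which tethers latent ligand to the matrix (-1.19, SE 0.26). LRRC32 went from 18.5 ± 5.66 to 2.66 ± 1.23 units (SD, n = 3 each) and LTBP1 from 353 ± 146 to 146 ± 21.6. The IRE1dn mean of LRRC32 was under the dim level. Its log2 change ran from -2.42 to -0.87 over all alternatives, and from -2.42 to -2.00 with 1 array left out, so its size depends on the processing. The LTBP1 call ended without IRE1dn array 2 or 3 (limma adjusted p of 0.064 and 0.076) or without the variance trend (0.052), and 5 genes of this list rose without either of these arrays.

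Of 14 measured genes of the activin arm and other receptors of the family, 1 rose and none fell, with a median of 0.08. The one was FST, follistatin, which binds activins: it went from 31.8 ± 7.82 to 133 ± 30.7 units (SD, n = 3 each; log2 change 2.00, SE 0.25; limma adjusted p = 0.0013). BAMBI, a decoy receptor induced by the pathway and named after its values were seen, read 60.2, 136 and 9.11 units in controls and 22.2, 9.01 and 22.4 in IRE1dn cells, so the controls themselves spanned the range (log2 change -1.30, SE 0.79; limma adjusted p = 0.32). Without control array 3 it passed as lower (-2.33; limma adjusted p = 0.012). Of 18 measured SMADs, corepressors and turnover genes, 3 rose and none fell, with a median of 0.13. They were TGIF2, a corepressor (1.95, SE 0.37), PPM1A, a phosphatase that acts on SMADs (0.82, SE 0.22), and SMURF2, a ubiquitin ligase recruited by SMAD7 (0.70, SE 0.19). TGIF2 read only 1.95 ± 0.0924 units in controls and 13.0 ± 4.56 in IRE1dn cells (SD, n = 3 each), so its size depends on the pseudocount (0.68 with 16). TGIF2 kept its call whichever array was left out. PPM1A and SMURF2 lost theirs without control array 3, IRE1dn array 2 or IRE1dn array 3, and further PPM1A without control array 2 and SMURF2 without control array 1 (limma adjusted p of 0.053 to 0.14). Both also lost it with equal array medians (0.064 and 0.059) or without the variance trend (0.086 and 0.097). SMAD2 and SMAD4, the partners of SMAD3, did not pass: their log2 changes were -0.14 (SE 0.36) and -0.30 (SE 0.26; limma adjusted p of 0.84 and 0.50), and both were named after their values were seen.

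Of 33 measured genes that TGF-beta is known to induce, 16 rose and 3 fell (median 0.89 on the log2 scale). This list too was chosen with earlier results of these data known, and whether TGF-beta signalling changed was not tested. The largest rises were TAGLN (6.19, SE 0.41) and NEDD9, a focal adhesion adaptor (5.05, SE 0.36), followed by the collagen COL1A1 (3.94, SE 0.51). TAGLN went from 8.74 ± 5.45 to 674 ± 80.4 units (SD, n = 3 each). Its control mean was under the dim level, and its log2 change ran from 4.82 to 6.49 over all alternatives. NEDD9 read 0.429 ± 0.641 units in controls and 69.0 ± 7.72 in IRE1dn cells (SD, n = 3 each), and its change was 2.37 with a pseudocount of 16. The falls were SPHK1, a sphingosine kinase (-1.40, SE 0.32), the AP-1 subunit JUNB (-1.01, SE 0.29) and the protease inhibitor TIMP1 (-0.78, SE 0.17). The JUNB call was lost whichever array was left out (limma adjusted p of 0.055 to 0.12) and without the variance trend (0.059), the call of SPHK1 without IRE1dn array 2 or 3 and the call of TIMP1 without IRE1dn array 2. Without any 1 IRE1dn array 9 genes of the list rose, and without IRE1dn arrays 2 and 3 in turn 0 and 1 fell. Over all probe sets, calls also became fewer without IRE1dn array 2 (766 higher and 611 lower) or 3 (795 and 641) than with all arrays (1664 and 1457).

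**Figure D3:**
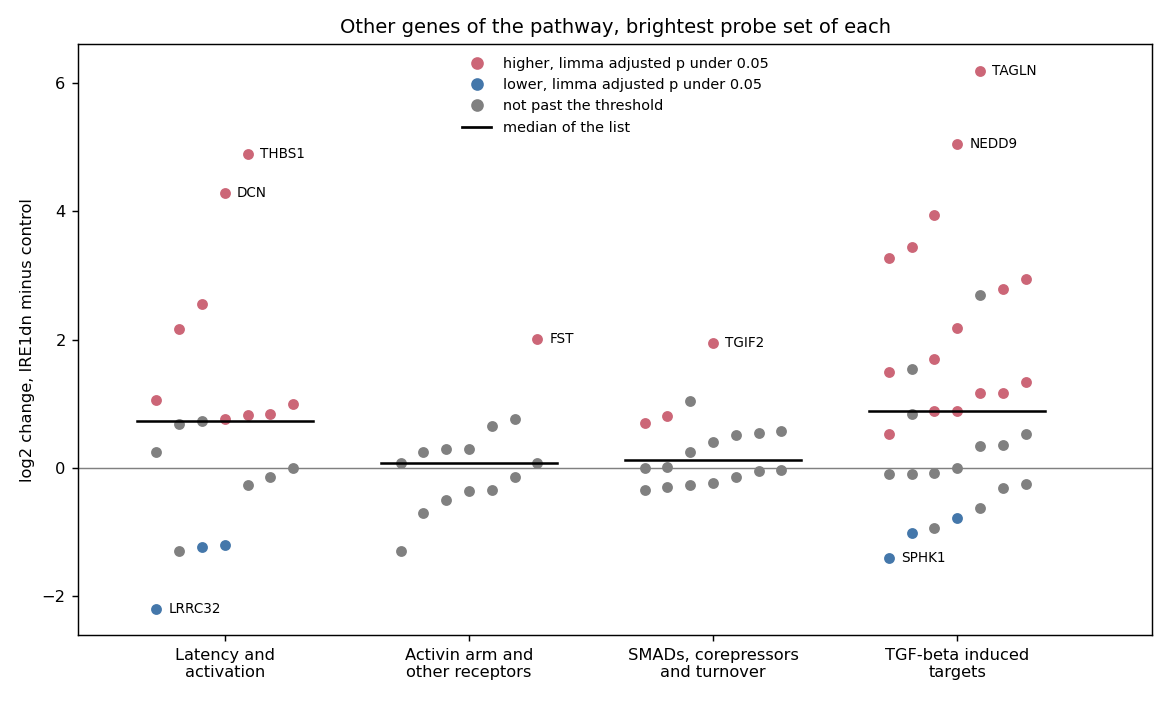
Log2 change (vertical axis, IRE1dn minus control) of each measured gene in 4 lists of the pathway, 1 point per gene, red where higher and blue where lower with a limma adjusted p under 0.05, grey otherwise, with a black bar at the list median. The medians are 0.73, 0.08, 0.13 and 0.89, and the largest values are those of TAGLN, NEDD9 and THBS1.

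Among the called member probe sets, TGFBR2 207334_s_at and SMAD3 205397_x_at each lost the call in several alternatives, as given above. TGFB2 209909_s_at and 220407_s_at, TGFBR2 208944_at, SMAD3 205398_s_at and PMEPA1 passed in every alternative that tested them, including each array left out in turn. Their log2 changes ranged from 1.29 to 2.07, from 1.56 to 2.54, from 0.88 to 1.10, from -2.24 to -1.37 and from 1.27 to 2.27.

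**Figure D4:**
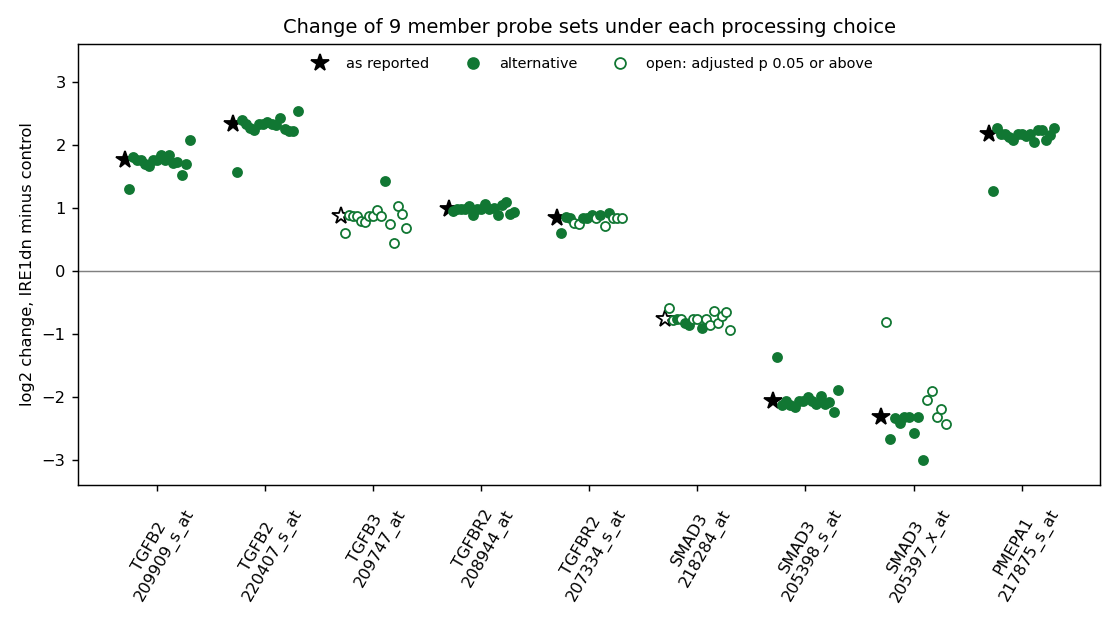
Log2 change (vertical axis, IRE1dn minus control) of 9 member probe sets as reported (star) and under each alternative of processing or with 1 array left out (circles), filled where the limma adjusted p was under 0.05 and open otherwise. TGFBR2 208944_at stays between 0.88 and 1.10, while TGFB3 spans 0.45 to 1.43 and SMAD3 205397_x_at spans -3.00 to -0.81.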

How the data were processed

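RNA of 6 U87 samples was measured on Affymetrix arrays, 1 per sample. The authors deposited array intensities on a linear scale for 22277 probe sets, made with GCOS 1.2 per the submitters' processing notes. How probes were combined, or background removed, is not stated there. The intensities were deposited already scaled, with a mean of 100.0 units on each array after trimming 2% at each end, so a change shared by all transcripts would not be seen. Arrays carry no depth; their number limits the precision.

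Gene symbols came from the platform annotation: 19064 probe sets had 1 symbol (19052 matched a RefSeq gene of GRCh38.p14 by identifier), 1043 had several and were not used, 2108 had none and 62 were controls. Signals were taken as log2(signal + 1.75), the 20th percentile of all values. One limma model over the 6 arrays (version 3.58.1, R 4.3.3), with group as its term and a variance trend in eBayes, gave two-sided tests without any filter on signal, and p-values were adjusted by Benjamini-Hochberg over 19064 probe sets, with a threshold of 0.05. The script was tested on simulated data. The dim level of 13.0 units is the 40th percentile of 11963 genes by their brightest probe set, the one with the highest mean log2 signal. Exact permutation tests used scipy 1.17.1. For each list up to 3 called genes were named in each direction, beside all members. Members, lists and tests were chosen with earlier results of these data known. Alternatives changed the pseudocount, filter, probe set choice, normalization or variance model, weighted the arrays, used replicate numbers as a block, or left out 1 array.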

Additional observations from a re-analysis of the deposited data

How the results depend on the processing

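Of the 20 member probe sets, 5 higher and 2 lower were called. With 1 probe set per gene, 3 were higher and 0 lower, because the SMAD3 probe sets that fell are not the brightest (limma; unadjusted p was 0.012 for the brightest). With a pseudocount of 16, 1 was lower. Leaving out each array gave 4 to 6 higher and 1 to 2 lower. Leaving out each array gave 5 to 10 higher and 2 to 4 lower for latency genes, 1 higher and 0 to 1 lower for the activin arm, 1 to 3 higher and 0 lower for the SMAD list, and 9 to 19 higher and 0 to 3 lower for the targets. With equal medians 1 SMAD list gene was higher, and without the variance trend 10 targets were. The share of calls that were higher was 53.3%, and 43.0% with equal array medians, which moved the median change of all probe sets from 0.03 to -0.06. Direction turned for 2 uncalled dim probe sets: TGFB2 220406_at (from -0.67 without control array 3 to 0.14 without control array 2) and SKIL 206675_s_at (from -0.047 without IRE1dn array 3 to 0.29 without IRE1dn array 2). With a pseudocount of 16, SMAD3 minus PMEPA1 was -1.86, SMAD7 minus PMEPA1 -1.38 and SKIL minus PMEPA1 -0.87. The SMAD3 205397_x_at change was then -0.81 and no longer passed. The cause of these moves was not tested.

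Same-numbered arrays shared little of their deviations from their group means, with correlations of -0.08, 0.03 and -0.02. Only 1 of 6 arrays correlated best with its own number. These values cannot show whether same-numbered samples were handled together. With the replicate number as a block 6 of the 7 called member probe sets were called, TGFBR2 207334_s_at being lost (limma adjusted p = 0.083), as were PPM1A (0.064) and JUNB (0.073) among the named pathway genes, and over all probe sets 1351 were higher and 1196 lower. Dim signals hold background that was not measured. This limits the TGFB1, TGFB2, SKIL, SMAD3 and PMEPA1 probe sets with a control or IRE1dn mean under 13.0 units.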
